A study of Mastomys natalensis with 3 samples.

Results

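Apolipoproteins are the protein parts of lipoproteins, the particles that carry cholesterol and triglyceride through blood and lymph. Probe sets for 7 apolipoprotein genes were followed across 3 arrays of gastric tissue from Mastomys natalensis, a rodent that develops gastric carcinoids. Every probe set with Apoe, Apoc3, Apoc1, Apoa1, Apoa2, Apoa4 or Apob as its only gene symbol in the platform annotation was taken. The 7 genes are among 4736 named on the array, and they had 15 of its 8740 non-control probe sets, 7006 of which carried 1 symbol. The family was chosen by measured values, because Apoe and Apoc3 read highest on the array of the 8-week group. Their height on that array is therefore a description and not a finding.

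Per the labels, each array carried total RNA of a gastric cell preparation in which enterochromaffin-like (ECL) cells had been enriched. ECL cells store histamine and release it under the control of gastrin. One group received loxtidine, a blocker of the histamine receptor on acid-secreting parietal cells, for 8 weeks, and a second group received it for 16 weeks. The third group had a gastric ECL cell carcinoid that arose spontaneously, and its label names no drug. The labels give no age, sex, strain or number of animals, and no group was untreated and tumour-free. In the field for the RNA source, ECL cells are named at 8 weeks and gastric mucosa at 16 weeks and in the carcinoid. Each group had 1 array with its own lot label, so group, array and lot cannot be told apart. In every contrast with the 8-week group, the labelled RNA source cannot be told apart from the group either. No difference below has a replicate, a standard error or a p-value.

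Apolipoproteins are made mainly by the liver and by the absorptive cells of the intestine. Apob is the large structural protein of chylomicrons and low-density lipoprotein, whereas the A, C and E proteins are small and move between particles. Apoe binds lipoprotein receptors and is also made in many tissues outside the liver, macrophages among them. The genes of Apoe and Apoc1 lie side by side in mammalian genomes, as do those of Apoa1, Apoc3 and Apoa4. The normal gastric mucosa is not a known major source of most of these proteins.

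Values are either deposited intensities or intensities after quantile normalization, which gives all arrays the same distribution. Readings are as deposited, and folds and log2 differences are from normalized values, unless a sentence says otherwise. A floor was set at 12.4, the median of the normalized values over all non-control probe sets and arrays. A fold is given where both arrays reached the floor, a bound ("at least") where 1 did, and no fold where neither did. The arrays are rat arrays, and rat probes may bind Mastomys RNA weakly, so folds were taken only within a probe set. A sum over a marker list weights its brightest probe sets most and is given only to set the arrays side by side.

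The arrays differed as a whole. Median deposited intensity was 10.1 to 13.8, lowest on the 8-week array. The GAPDH control had a 3' to 5' signal ratio of 8.95 at 8 weeks, 1.43 at 16 weeks and 2.31 in the carcinoid, so 5' signal was weakest on the array where Apoe was brightest. For beta-actin the ratios were 16.1, 6.71 and 11.7 in the same order. The part of this difference in the results below was not tested. As a measure of background, 15 probe sets for Bacillus genes had maxima of 30.2, 14.2 and 21.8 in that order after normalization. The only error at hand came from the gaps between the log2 differences of a gene's brightest pair of probe sets. The spread is the root mean square gap divided by the square root of 2, so it is smaller than that gap. This spread was 0.79 over 410 genes for 16 against 8 weeks. It was 0.82 over 395 genes when the carcinoid was set against 8 weeks, and 0.62 over 457 genes when it was set against 16 weeks. The pairs lay over 1 log2 apart in 34.15%, 39.49% and 25.38% of these genes in the same order. The spread holds no variation between animals.

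Of the 15 apolipoprotein probe sets, 4 reached the floor on all 3 arrays, namely both Apoe probe sets, the Apoa4 probe set and 1 of Apob. A further 2 reached it on 2 arrays, 7 on 1 array, and 2 on none. By array, 6 reached it at 8 weeks, 9 at 16 weeks and 8 in the carcinoid. Of all 8740 non-control probe sets, 4371, 4379 and 4371 reached it in that order, because the floor is their pooled median. The apolipoprotein counts lie near that share, and the marker list counts at the floor further below are to be read beside it. The apolipoprotein counts above every Bacillus control were 4, 9 and 7 in the same order. The 4 at 8 weeks were both Apoe probe sets, 1 of Apoc3 and 1 of Apob. In the deposited values 5 probe sets were highest at 8 weeks, 3 at 16 weeks and 7 in the carcinoid, so not every probe set shared the 8-week maximum behind the choice. The 8-week array had the lowest median deposited intensity, and the 7 include both probe sets under the floor on every array. No such count was made over all probe sets, so nothing further is read from it.

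**Figure D1:**
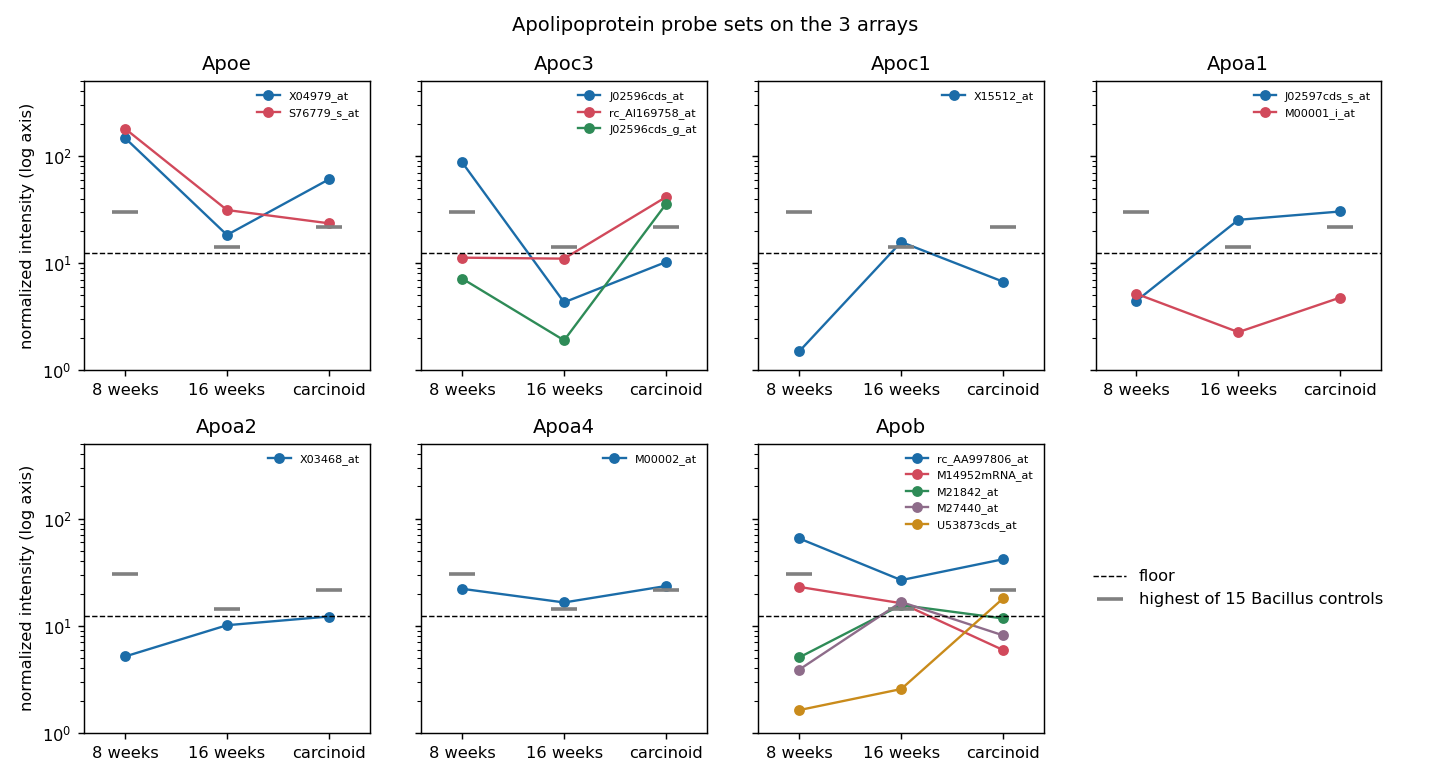
Normalized intensity (log axis) of each apolipoprotein probe set on the 8-week, 16-week and carcinoid arrays, 1 array per point, with 1 panel per gene. The dashed line is the floor of 12.4 and grey bars are the highest of 15 Bacillus controls on that array. Both Apoe probe sets stand well above the bar at 8 weeks, whereas Apoa2 and 1 Apoa1 probe set stay under the floor on all 3 arrays.

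Apoe is the ligand by which remnant particles are taken up through receptors of the low-density lipoprotein receptor family. Its probe set X04979_at had deposited intensities of 100.5 at 8 weeks, 19.4 at 16 weeks and 71.6 in the carcinoid. Its other probe set, S76779_s_at, read 124 at 8 weeks, 33.7 at 16 weeks and 26.3 in the carcinoid. Both probe sets were thus highest at 8 weeks, but they placed the carcinoid differently, near the 8-week value on the first and near the 16-week value on the second. After normalization the first probe set was 8.04-fold lower and the second 5.75-fold lower at 16 weeks than at 8 weeks. These log2 differences of -3.01 and -2.52 lay 0.48 apart, within the spread between probe sets. Both hold the 8-week values by which Apoe was chosen, so nothing is read from their likeness. As deposited, without normalization, Apoe was 5.18-fold and 3.68-fold lower.

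The carcinoid values of Apoe depended on the probe set. Against 8 weeks, X04979_at was 2.43-fold lower and S76779_s_at 7.65-fold lower after normalization, a gap of 1.65 on the log2 scale. As deposited the first of these was only 1.40-fold lower and no longer past 2-fold. The rule for the family did not name the contrast of carcinoid against 16 weeks. There X04979_at was 3.31-fold higher in the carcinoid and S76779_s_at 1.33-fold lower, a gap of 2.14. A direction for Apoe between these arrays is therefore not settled. The suffix _s_at marks a probe set that may match more than 1 transcript, which X04979_at does not carry.

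Apoc3, which slows the breakdown of triglyceride-rich particles by lipoprotein lipase, had 3 probe sets that did not share a pattern. Probe set J02596cds_at, the one behind the choice of Apoc3, read 63.7 as deposited at 8 weeks, 4.7 at 16 weeks and 11.5 in the carcinoid. It was at or above the floor at 8 weeks alone, and was at least 7.02-fold lower on each of the other arrays. Its companion J02596cds_g_at, drawn from the same source entry, read 5.9, 2.1 and 40.5 in the same array order. The third, rc_AI169758_at, made from an expressed sequence tag (EST), read 9.2, 11.7 and 47.2. These last probe sets were highest in the carcinoid, by a factor of 2.87 or more and of 3.34 or more over the 8-week array, and the same bounds held against 16 weeks. Thus 1 Apoc3 probe set was highest at 8 weeks and 2 in the carcinoid. Per the annotation, Apoa1's J02597cds_s_at shares that source entry too, 3 probe sets in all.

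Apoc1, which hinders particle uptake and activates the enzyme that esterifies cholesterol in plasma, had 1 probe set, X15512_at. Its deposited intensities were 1.3 at 8 weeks, 16.6 at 16 weeks and 7.4 in the carcinoid. It reached the floor at 16 weeks alone, where its normalized value of 15.7 lay barely above the highest Bacillus control. The bound against each other array was at least 1.27-fold higher at 16 weeks. Of its neighbour Apoe, X04979_at was lowest on that array and S76779_s_at lay between its other values.

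Apoa1 is the main protein of high-density lipoprotein and the acceptor of cholesterol leaving cells. Probe set J02597cds_s_at read 3.7 as deposited at 8 weeks, 27 at 16 weeks and 33.9 in the carcinoid. It was at least 2.04-fold higher at 16 weeks and at least 2.44-fold higher in the carcinoid than at 8 weeks, the opposite of Apoe. The 16-week and carcinoid arrays were 1.20-fold apart, within the spread between probe sets. The other probe set, M00001_i_at, read 4.3, 2.5 and 5.1 and was under the floor throughout, so the difference rests on 1 probe set. J02597cds_s_at also carries the suffix of probe sets that may match more than 1 transcript. With a higher floor of 30.0, its log2 difference from 8 weeks was 0.01 in the carcinoid, and at 16 weeks it had no value.

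Apoa2, the second protein of high-density lipoprotein, read 4.3 at 8 weeks, 10.8 at 16 weeks and 13.7 in the carcinoid as deposited. After normalization its highest value was 12.2, under the floor, so no fold is given for X03468_at. Apoa4, which intestinal cells secrete with chylomicrons, was the steadiest member. M00002_at read 18.3, 17.4 and 26.3 as deposited, and was 1.34-fold lower at 16 weeks and 1.06-fold higher in the carcinoid than at 8 weeks after normalization. These differences lay within the spread between probe sets, and the 8-week value of 22.1 lay under the highest Bacillus control on that array.

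Apob had 5 probe sets. The brightest, rc_AA997806_at, is EST-based and read 49.1 at 8 weeks, 28.4 at 16 weeks and 47.8 in the carcinoid as deposited. After normalization it was 2.45-fold lower at 16 weeks and 1.56-fold lower in the carcinoid than at 8 weeks. As deposited these were 1.73-fold and 1.03-fold lower, neither past 2-fold. M14952mRNA_at read 18.9, 17.1 and 6.5, and was 1.42-fold lower at 16 weeks.

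The remaining Apob probe sets had other patterns. M21842_at read 4.2, 16.5 and 13.1 as deposited, and M27440_at read 3.3, 17.6 and 9.1, so both were lowest at 8 weeks. After normalization they reached the floor at 16 weeks alone, where the first exceeded its 8-week value by at least 1.26-fold and the second by at least 1.34-fold. U53873cds_at read 1.4, 2.8 and 20.1, and reached the floor in the carcinoid alone, at least 1.45-fold above the others, with a normalized value of 18.0 that lay under the highest Bacillus control there. Of the 5 Apob probe sets, 2 were therefore highest at 8 weeks, 2 at 16 weeks and 1 in the carcinoid.

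**Figure D2:**
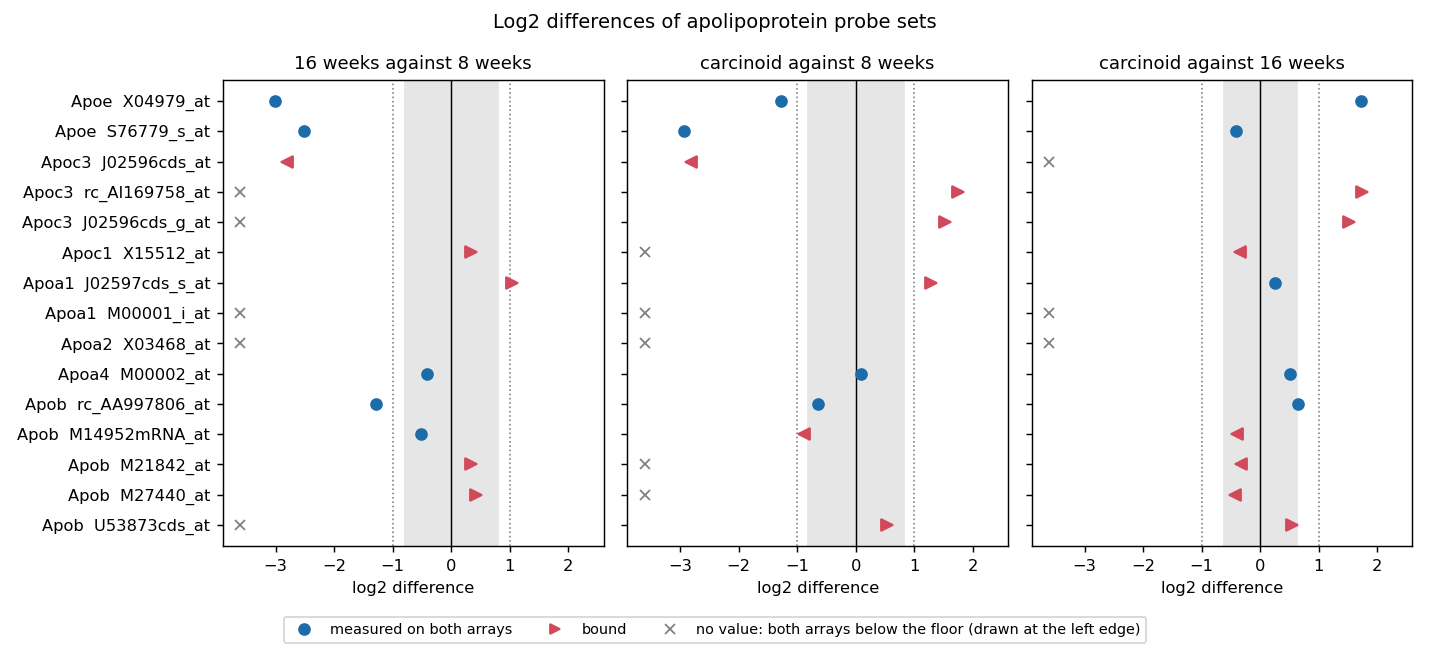
Log2 difference of each apolipoprotein probe set in the 3 comparisons, with circles where both arrays reached the floor, triangles for bounds and crosses where neither did. The grey band is the spread between probe sets of a gene (0.79, 0.82 and 0.62) and dotted lines mark 2-fold; Apoe lies beyond both on the left panel, and most Apob points are bounds whose place is set by the floor.

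Counted over the family, 10 probe sets had a value for 16 against 8 weeks. Of these 4 were at least 2-fold lower at 16 weeks (both Apoe, J02596cds_at and rc_AA997806_at) and 1 at least 2-fold higher (Apoa1). Over the 4508 probe sets with a value, 12.8% were lower by 2-fold or more and 14.2% higher, bounds included. As deposited those shares were 6.18% and 22.3%. The family's median log2 difference was -0.46, against 0.00 over all probe sets, but -0.11 as deposited and 0.15 when each gene was taken at the median of its probe sets, so its direction is not settled. Because the 8-week array chose the family, nothing is read from that count.

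For carcinoid against 8 weeks, 10 probe sets had a value, 3 at least 2-fold lower (both Apoe and J02596cds_at) and 3 at least 2-fold higher (2 of Apoc3 and 1 of Apoa1). The shares over 4530 probe sets were 13.5% lower and 15.0% higher, or 5.99% and 26.3% as deposited. The median was -0.28 for the family and -0.02 for all, but the family's was 0.13 as deposited, 0.67 with a lower floor, 0.33 with no floor and 0.29 by gene medians, so it has no settled direction. This contrast too includes the array behind the choice.

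For carcinoid against 16 weeks, 12 probe sets had a value. At least 2-fold higher in the carcinoid were 3, namely X04979_at of Apoe and 2 of Apoc3, and 0 were at least 2-fold lower. Over 4394 probe sets, 9.63% were at least 2-fold higher and 9.51% at least 2-fold lower. The family median was 0.38, against 0.00 over all probe sets. This contrast was not used in the choice, but the Apoc3 values are bounds and the second Apoe probe set had the opposite sign. The comparisons share arrays in pairs and are not independent.

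**Figure D3:**
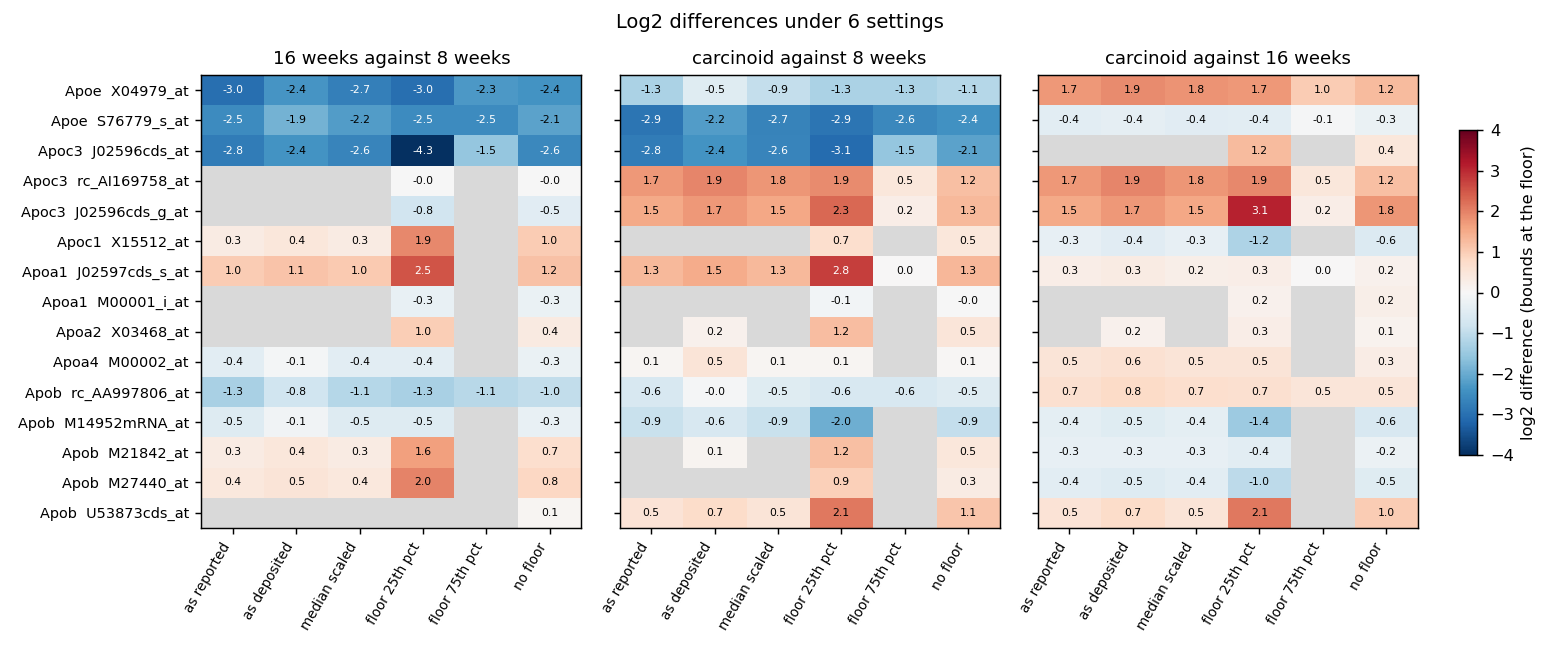
Log2 difference of each apolipoprotein probe set (colour and printed value, bounds at the floor; grey where no value could be given) in the 3 comparisons under 6 settings of scaling and floor. Both Apoe probe sets, chosen for their 8-week values, are negative for 16 against 8 weeks in every column. Apoa1, Apoc1 and several Apob values change size with the floor.

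Genes that read most like each member were found by the distance between log2 profiles over the 3 arrays, each centred on its own mean and raised to the floor, among 3657 other genes. Nearest to Apoe (X04979_at) were Mamdc4 (distance 0.196), the clathrin adaptor subunit Ap2m1 (0.358) and the G protein subunit Gng7 (0.37), and 7 genes lay within 0.5. Nearest to Apoc3 (J02596cds_at) were Prp15, the keratin Krt4 and the polyamine enzyme Odc1, with 9 genes within 0.5. Both profiles hold the values by which Apoe and Apoc3 were chosen, so nothing is read from these near genes or their number. Other probe sets of Apoe and Apoc3 had other profiles. The log2 difference of carcinoid against 16 weeks was 1.72 on X04979_at of Apoe and -0.41 on S76779_s_at. The Apoc3 probe sets J02596cds_g_at and rc_AI169758_at were highest in the carcinoid. For Apoc1, 1142 genes lay within 0.5, for Apoa4 1041, for Apob 418 and for Apoa1 356, so their nearest genes name little. These were Rnf112, Tcof1 and Mmp14 for Apoc1, and Klrb1a, Gnb2 and Car3 for Apoa1. For Apoa4 they were Kiaa0930, Tff1 and Ptov1, and for Apob Fgfr1, Slc6a4 and Fntb.

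Other apolipoproteins had 5 genes on the array, of which 3 reached the floor. Clu (clusterin, also called apolipoprotein J) read 58.1 at 8 weeks, 103 at 16 weeks and 21.3 in the carcinoid as deposited. After normalization it was 4.16-fold lower in the carcinoid than at 8 weeks and 5.05-fold lower than at 16 weeks. Apom, a carrier of sphingosine phosphate, read 40.5, 47.8 and 42.1 as deposited, and was 1.44-fold lower in the carcinoid than at 8 weeks after normalization. Apoc4, the gene between Apoc1 and Apoc2, was under the floor on every array.

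Receptors and lipases of lipoprotein metabolism were counted by the brightest probe set of each gene. Of 6 receptor genes with a value for 16 against 8 weeks, 0 were at least 2-fold higher and 1 lower, and for carcinoid against 8 weeks 0 of 7 passed in either direction. Over all genes with a value, 13.96% were at least 2-fold higher and 12.9% lower at 16 weeks than at 8 weeks. In the carcinoid 14.6% were higher and 13.7% lower than at 8 weeks, and the list counts below are to be read against these shares. The gene past 2-fold was Lrpap1, a chaperone of the receptor family, at least 2.75-fold lower on its brightest probe set. Another of its probe sets was at least 1.23-fold higher. Scarb1, the receptor for high-density lipoprotein, read 24.4, 34.2 and 31.2 as deposited on its brightest probe set. After normalization another was 2.11-fold lower at 16 weeks than at 8 weeks, and the third at least 1.55-fold higher. Of 6 lipase genes, 0 were higher and 1 lower at 16 weeks. That gene was pancreatic lipase, Pnlip, at least 10.3-fold lower, from deposited readings of 88, 10.2 and 37. It was also the 1 of 6 past 2-fold in the carcinoid against 8 weeks, 3.92-fold lower. Its second probe set was under the floor throughout. Lipoprotein lipase, Lpl, read 25.8, 25.9 and 30.2 on its brightest probe set. In the carcinoid another was 2.79-fold higher than at 8 weeks, and the third at least 1.26-fold lower.

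Cell types that make apolipoproteins were examined through marker lists. Of 19 hepatocyte markers on the array, 11 reached the floor at 8 weeks, 11 at 16 weeks and 11 in the carcinoid, but these were not the same genes. For 16 against 8 weeks, 2 of 14 were at least 2-fold higher and 1 lower, with a median log2 difference of 0.24. Their summed deposited intensity was 436.8 at 8 weeks, 527 at 16 weeks and 600.0 in the carcinoid. After normalization the sums were 598, 489 and 504, so the 8-week array was lowest on 1 scale and highest on the other. The part of hepatocyte RNA in the results was not tested. Among defining genes, albumin (Alb) read 7.8, 15.7 and 14.6 on its brightest probe set, and Fabp1 and Tdo2 were under the floor on every array. Transthyretin, Ttr, which endocrine cells also make, was the brightest at 201, 182 and 280. Haptoglobin, Hp, read 39.2, 5.6 and 34 and at 16 weeks it was lower by at least 4.11-fold. The markers past 2-fold the other way were the cytochrome Cyp2c11, at least 2.69-fold higher, and the fibrinogen chain Fga, at least 2.16-fold higher, each on 1 probe set.

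Of 8 enterocyte markers, 4 reached the floor at 8 weeks, 5 at 16 weeks and 4 in the carcinoid. None of 5 was past 2-fold at 16 weeks, and the summed intensity was 168, 197 and 172 as deposited and 218, 183 and 152 after normalization. Sucrase-isomaltase (Si) and the Apob-editing enzyme Apobec1 were under the floor on every array. Lactase, Lct, read 38, 40.6 and 8.2 and was at least 3.97-fold lower in the carcinoid than at 8 weeks.

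Macrophage markers had their lowest sum at 16 weeks, as did the lipase list. As deposited, the lipase sum was 257 at 8 weeks and 199 at 16 weeks, a smaller drop than that of Pnlip alone (88 to 10.2). X04979_at of Apoe was also lowest at 16 weeks, but S76779_s_at was lowest in the carcinoid. Of 10 macrophage markers on the array, 7 reached the floor at 8 weeks, 6 at 16 weeks and 7 in the carcinoid. Their sum was 284.5, 196 and 266 as deposited and 372, 183 and 233 after normalization. For 16 against 8 weeks, 0 of 8 were at least 2-fold higher and 3 lower, with a median of -0.65, against 13.96% higher and 12.9% lower over all genes. The lower ones were the complement component C1qb (at least 7.42-fold, from readings of 67.1 and 3.9, most of the difference between the sums as deposited), the lysosomal protease Ctss (3.55-fold) and Aif1 (2.09-fold). For carcinoid against 8 weeks, 1 of 9 was higher, Lgals3, and 3 were lower, against 14.6% and 13.7% over all genes. C1qc, the partner of C1qb, read 48.7, 47.5 and 66.9 as deposited, and a second C1qb probe set was under the floor on every array. The part of macrophage RNA in the Apoe values was not tested, and in RNA from a mixed sample a change in cell number and a change per cell cannot be told apart.

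The label of enriched ECL cells was checked on 12 ECL and neuroendocrine markers. Histidine decarboxylase, Hdc, which makes histamine, was under the floor on all arrays at 3.7, 5.2 and 3.4 as deposited. Slc18a2, the vesicular monoamine transporter, read 18, 45.5 and 26, and the gastrin receptor Cckbr 54.7, 60.5 and 40.2, each on its brightest probe set. Some markers of other gastric cells were also above the floor on every array. Of 8 parietal markers, 7, 6 and 5 reached it in array order, and of 4 chief cell markers 3 on each array. The parietal proton pump subunit Atp4a read 555, 1566 and 1218 and the chief cell pepsinogen Pgc 3701, 5703 and 3718. Other parietal markers had other patterns, with the pump subunit Atp4b at 153, 155 and 143 and Slc4a2 at 525, 296 and 323. Levels of different probe sets cannot be set against each other, and no unenriched sample was among the 3, so the enrichment could not be checked. For carcinoid against 8 weeks 4 of 7 ECL and neuroendocrine markers were at least 2-fold lower and 0 higher, against 13.7% lower and 14.6% higher over all genes. Cckbr, Chgb and Syp were 2.11-fold, 2.12-fold and 2.14-fold lower, and Pcsk2 at least 2.66-fold lower. As deposited, Chgb read 29.6 at 8 weeks and 19.8 in the carcinoid, and Syp 43.2 and 29.9. These and Cckbr were thus not past 2-fold before normalization. For 16 against 8 weeks 0 of 8 were at least 2-fold higher and 1 lower.

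**Figure D4:**
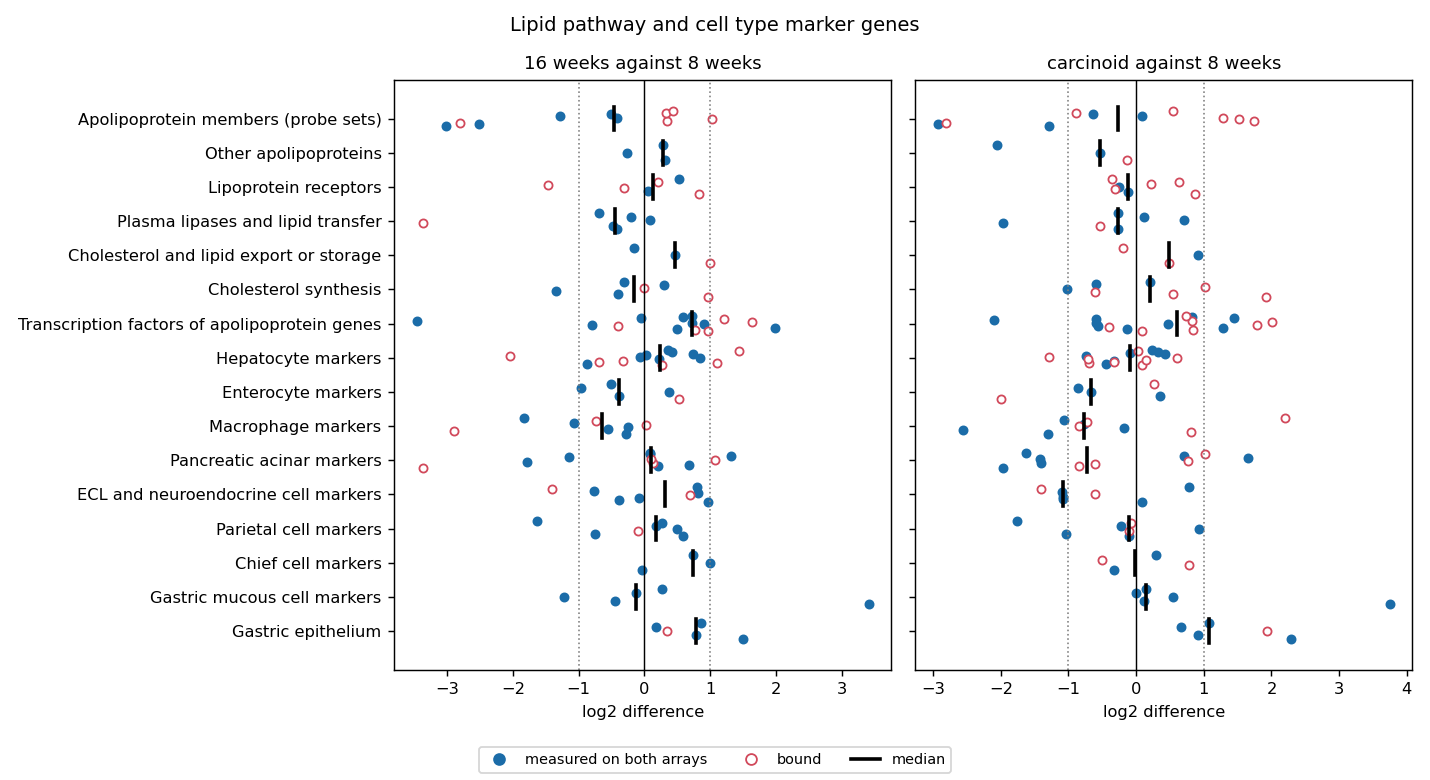
Log2 differences of 16 against 8 weeks (left) and carcinoid against 8 weeks (right) for the apolipoprotein probe sets (top row) and for the brightest probe set of each gene of 15 lists. Filled circles were measured on both arrays, open circles are bounds, and black bars are medians. The apolipoprotein medians are -0.46 on the left and -0.28 on the right. Several lists have larger ones in the same order, namely macrophage (-0.65 and -0.77), gastric epithelium (0.78 and 1.08) and transcription factors (0.72 and 0.6). On the right alone, the ECL (-1.08), acinar (-0.72) and enterocyte (-0.67) medians are also larger in size than that of the apolipoproteins.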

How the data were processed

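The values deposited by the authors are linear intensities, with 1 value for each probe set on each array. How it was computed, background-corrected and scaled is not given in the sources used here. Gene symbols came from the platform annotation. The 3 arrays were quantile-normalized because their medians differed, and log2 differences were taken after raising values to a floor of 12.4. Each listed gene was represented by its brightest probe set, judged on the mean over arrays. The spread between probe sets is the root mean square gap between a gene's brightest pair, divided by the square root of 2. Named list genes were the 4 with the largest difference against 8 weeks and the brightest of each list, with defining markers, gene neighbours and main receptors added after their values were seen. Not every gene the rule allowed is printed. The members and the 15 lists were chosen with earlier results of these data known. Alternatives were the values as deposited, scaling by the median, floors at the 25th (4.2) and 75th (30.0) percentile, log2 of value plus floor, and the median of a gene's probe sets. With 1 array per group no test was run. The steps were tested on simulated data, using Python 3.11.15, NumPy 2.4.6 and pandas 2.3.3.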

Additional observations from a re-analysis of the deposited data

How the results depend on the processing

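Without replicates, a value was taken to have moved where it shifted by more than the spread between probe sets, and a count where it changed by more than 1.5 times. Among values of single probe sets and gene medians under the alternatives, 129 held and 25 did not. Values lost under a floor are in neither number. With the floor at the 75th percentile only 9 held and 8 moved, whereas 32 values were compared as deposited. Of the gene medians 4 held, 3 moved and 2 reversed. Of the 25 that did not hold, 3 changed sign, each when a gene was taken at the median of its probe sets. Those medians were 0.39 for Apob at 16 against 8 weeks and -0.39 for Apob in the carcinoid against 16 weeks. For Apoc3 the median was 1.52 in the carcinoid against 8 weeks. The floor moved the counts most. With it at the 25th percentile, probe sets at least 2-fold higher numbered 4 for 16 against 8 weeks, 6 for carcinoid against 8 weeks and 5 for carcinoid against 16 weeks, where 3 were lower; with it at the 75th percentile the higher ones numbered 0, 0 and 1. With no floor 2 were higher at 16 against 8 weeks. The family's median was -1.92 at 16 against 8 weeks with the 75th percentile and 0.67 in the carcinoid against 8 weeks with the 25th. Its sign turned in the first comparison by gene medians (0.15) and in the second also as deposited (0.13), with no floor (0.33) and by gene medians (0.29).

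Over all probe sets, the shares at least 2-fold higher and lower at 16 against 8 weeks were 22.3% and 6.18% as deposited, 21.7% and 20.2% at the 25th percentile, 6.77% and 6.21% at the 75th, and 8.11% and 8.01% with no floor. In the carcinoid against 8 weeks they were 26.3% and 5.99% as deposited, 7.86% and 6.51% at the 75th percentile, and 9.23% and 8.11% with no floor, with 20.9% lower at the 25th. In the carcinoid against 16 weeks they were 17.9% and 17.4% at the 25th percentile, 2.67% and 2.62% at the 75th, and 5.21% and 5.3% with no floor. As deposited, all probe sets shifted by a median log2 of 0.42 at 16 against 8 weeks and 0.45 in the carcinoid against 8 weeks. The causes of these changes were not tested. No paired analysis was possible because each group had 1 array, and for the same reason no array could be left out.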

Other observations

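Of 22 transcription factor genes known to act on apolipoprotein promoters, 17 reached the floor on at least 1 array. For 16 against 8 weeks 3 of 14 were at least 2-fold higher and 1 lower, against 13.96% higher and 12.9% lower over all genes, shares to which these small counts lie close. The median log2 difference was 0.72, against 0.01 over all genes. Foxa2, a factor of endoderm-derived epithelia, read 2.1 at 8 weeks, 41.3 at 16 weeks and 57.8 in the carcinoid as deposited, and exceeded its 8-week value by at least 3.11-fold at 16 weeks and 4.02-fold in the carcinoid. The retinoid receptor Rxrg was 3.99-fold higher at 16 weeks on 1 probe set, while its other probe sets were under the floor. Pparg, the fat-cell factor, read 5, 9.9 and 49.1 and was at least 3.46-fold higher in the carcinoid. Hnf4a, which drives many apolipoprotein genes in liver, had 3 probe sets that disagreed: at 16 weeks the brightest was 1.86-fold higher and another 1.35-fold lower, and the third had no value. Cebpb had a log2 difference of -3.46 at 16 weeks, but its second probe set was under the floor throughout.

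Of 12 cholesterol synthesis genes on the array, 7 reached the floor on at least 1 array. Squalene synthase, Fdft1, read 7.8, 5.6 and 54 on its brightest probe set and was at least 3.77-fold higher in the carcinoid than at 8 weeks, while another read 23.2, 5.6 and 1.2 and was at least 2.32-fold lower. Lanosterol synthase, Lss, was 2.56-fold lower at 16 weeks than at 8 weeks on its brightest probe set, and 1.59-fold and at least 1.26-fold lower on the others. Of the genes for lipid export and storage, Dgat1, which makes triglyceride, was the brightest at 96.3, 213 and 337 as deposited. It was 1.37-fold higher at 16 weeks and 1.88-fold higher in the carcinoid than at 8 weeks after normalization.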
